A study of Mus musculus with 10 samples.

Results

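Toll-like receptors are the germline-encoded receptors with which innate immune cells sense microbial lipids, proteins and nucleic acids. The mRNA of 10 mouse Toll-like receptor genes, taken by gene symbol out of 25233 entries with a symbol, was followed in hypertrophied hepatic stellate cells (hypHSCs) and quiescent hepatic stellate cells (qHSCs) of mouse liver. Of these genes, 5 encode receptors of the cell surface (Tlr1, Tlr2, Tlr4, Tlr5 and Tlr6) and 5 encode receptors of endosomes (Tlr3, Tlr7, Tlr8, Tlr9 and Tlr13), and the 2 sets are described apart. RNA sequencing was done on 5 libraries of each kind of cell. All mice were C57BL/6J males. The hypHSCs came from mice on CDAHFD, a choline-deficient diet rich in fat under which steatohepatitis and fibrosis develop: hypHSC 1 and 2 after 13 weeks of diet at 19 weeks of age, and hypHSC 3, 4 and 5 after 12 weeks at 18 weeks of age. The qHSCs came from mice on a standard diet (SD), at 36 weeks of age for qHSC 1, 2 and 5 and at 34 weeks for qHSC 3 and 4. Both kinds of cell floated on a density gradient and were then sorted, the qHSCs by the blue autofluorescence of vitamin A and the hypHSCs by green fluorescence. Antibiotics were present in the buffers of the CDAHFD preparations. The study added them because it saw bacteria in preparations from CDAHFD livers and never in those from SD livers. CDAHFD livers were also digested for longer, with more enzyme and at a faster flow. The sequenced samples were picked for RNA quality. Diet, age, gate, digestion, bacteria in the preparations and antibiotics therefore differ together between the groups and cannot be told apart. The labels name no animal behind a library, so p-values measure the spread between preparations.

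Surface Toll-like receptors bind microbial lipids and proteins, and Tlr2 does so as a pair with Tlr1 or Tlr6. Endosomal Toll-like receptors bind nucleic acids that reach the endolysosome, where the chaperone Unc93b1 brings them and cathepsins cut them into their active form. Adaptors, above all Myd88, carry the signal to kinases that release NF-κB and interferon regulatory factors, which then induce cytokines. In the liver, Kupffer cells and other macrophages are rich in these receptors, and Tlr4 is the member best known in stellate cells.

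Gene positions are given as deposited, on mouse build mm39 (GRCm39). Tlr1 (chr5:65082023-65090904) and Tlr6 (chr5:65110322-65117392) lie next to each other on the minus strand, as do Tlr8 (chrX:166024119-166047325) and Tlr7 (chrX:166087922-166113567). Tlr13 is also on chromosome X (chrX:105186879-105204099, plus strand). Tlr2 lies at chr3:83743578-83749074, Tlr4 at chr4:66745788-66848521, Tlr5 at chr1:182782351-182804010, Tlr3 at chr8:45848702-45863656 and Tlr9 at chr9:106099797-106104075. Tlr1 and Tlr6 are near-identical over part of their coding sequence: 405 windows of 59 bases, the read length, were the same in both transcripts, which was 13.6% of the windows of Tlr1 and 9.44% of those of Tlr6, so reads there can be split between them. Tlr7 shared 6.78% of its windows with other transcripts, and 8.19% of the exon bases of Tlr3 and 3.35% of those of Tlr4 lay in an overlapping gene (Gm45542 and Gm69151). The libraries did not keep the strand, so reads of overlapping genes cannot be separated there.

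The 250 bases before the gene start are shown for the most abundant receptor gene of each group, Tlr13 in hypHSCs and Tlr2 in qHSCs. Those of Tlr8, which like Tlr13 and Tlr7 was low in 3 qHSC libraries, are shown as well. They are read from GRCm39 on the strand of the gene, up to the outer one of the deposited and the GENCODE start, and capitals mark motif matches on either strand. The window of Tlr13 is chrX:105186561-105186810 (plus strand), that of Tlr8 chrX:166047326-166047575 and that of Tlr2 chr3:83749075-83749324 (both minus strand).
Tlr13: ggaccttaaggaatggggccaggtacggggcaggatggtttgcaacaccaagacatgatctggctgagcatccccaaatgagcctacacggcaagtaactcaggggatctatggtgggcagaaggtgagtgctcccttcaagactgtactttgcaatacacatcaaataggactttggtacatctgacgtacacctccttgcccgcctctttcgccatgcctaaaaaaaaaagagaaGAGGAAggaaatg
Tlr8: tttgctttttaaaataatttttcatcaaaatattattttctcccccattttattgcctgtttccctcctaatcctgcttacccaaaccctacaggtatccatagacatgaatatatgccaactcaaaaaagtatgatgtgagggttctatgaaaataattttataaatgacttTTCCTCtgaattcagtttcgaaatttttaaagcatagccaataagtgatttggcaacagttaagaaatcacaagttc
Tlr2: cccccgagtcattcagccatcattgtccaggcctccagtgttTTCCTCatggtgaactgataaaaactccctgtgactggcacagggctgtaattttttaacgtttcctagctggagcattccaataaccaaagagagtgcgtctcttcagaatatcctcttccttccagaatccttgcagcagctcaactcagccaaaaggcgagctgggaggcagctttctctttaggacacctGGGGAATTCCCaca
All 3 windows hold GAGGAA, the core bound by the myeloid factor PU.1, read on the minus strand in Tlr8 and Tlr2. The second capital stretch of Tlr2, just before its start, is the NF-κB site known as the kappa B consensus, with matches on both strands that overlap. Of 4 motifs searched on both strands, GAGGAA was in the windows of 6 of the 10 genes (Tlr2, Tlr4, Tlr3, Tlr8, Tlr9 and Tlr13). It was in 23.0% of the windows of 18759 protein-coding genes. Among the genes higher in hypHSCs, Tlr8 and Tlr13 had it, and Tlr1, Tlr6 and Tlr7 did not. Tlr3, which was lower, had it. The kappa B consensus was in the window of Tlr2 alone and in 7.89% of all windows, and the AP-1 site TGANTCA was in the window of Tlr9 alone and in 5.96%. The interferon response motif was in none of the 10 windows and in 3.26% of all. These are letter matches and not sites shown to be bound. Some windows lay partly in GENCODE exons: 220 bases for Tlr4, 213 for Tlr6, 193 for Tlr3, 98 for Tlr1, 40 for Tlr5 and 1 for Tlr13. Spi1, which encodes PU.1, had 730 to 1518 normalized counts in hypHSCs and 6.82 to 153 in qHSCs.

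The libraries held 30534719 to 43283589 reads on genes with a symbol in hypHSCs and 35640104 to 47317028 in qHSCs. The label of stellate cells was checked against markers. All 14 stellate cell markers, such as Lrat and Reln, were lower in hypHSCs by limma, with a summed level of 34157 to 66024 normalized counts against 1308788 to 2150079 in qHSCs, but none was at 0 in all hypHSC libraries. Of 10 core macrophage markers, 9 were higher in hypHSCs and Cx3cr1 did not pass the test, and their sum was 958263 to 1167970 against 3420.1 to 48417. Neutrophil markers were higher for 5 of 5 tested genes of a list of 7, with a sum of 2039 to 8391 against 5.25 to 399.6. The untested Ly6g had at most 9 reads in any library, and Cxcr2 had 0 to 94 in hypHSCs. Biliary epithelial markers were higher for 4 of 4 tested genes, with a sum of 797 to 6833 against 4.72 to 56.1. Dendritic cell markers were higher for 1 of 6 tested genes and lower for 1, and sinusoidal endothelial markers for 2 and 1 of 6. B cell markers were higher for 1 of 2, and no T and NK cell or hepatocyte marker passed. Of all genes tested, 17.8% were higher and 21.7% lower. The part of these other cell types in the receptor differences was not tested, and in bulk RNA fewer cells of a type and less RNA per cell cannot be told apart. hypHSC 5 stood apart, with reads on the fewest genes, 14028 against 14949 to 16634 in the other hypHSC libraries. hypHSC 1 had the most mitochondrial reads, 12.8% against 2.21% to 7.27%.

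In hypHSCs, 5 Toll-like receptor genes were higher than in qHSCs (Tlr1, Tlr6, Tlr7, Tlr8 and Tlr13), with group means that differed by 17.5-fold to 70.7-fold, and Tlr3 was lower. Tlr2 and Tlr4 were expressed in every library of both groups at levels closer to each other. Tlr5 and Tlr9 were at or near 0 and were not tested. Values are normalized counts, that is, reads divided by the size factor of the library. Log2 values with 1 added were compared with limma, and a differentially expressed gene (DEG) differed by 1 or more on the log2 scale with an adjusted p not above 0.05. Of the 8 members tested, 5 (62.5%) were DEGs higher in hypHSCs, against 17.8% of all 14630 genes tested, and 1 was a DEG lower in hypHSCs, against 21.7%. The 5 higher members had groups that did not overlap, as had 17.6% of all genes in that direction, and so had Tlr3 in the other direction, as had 22.0%. The median log2 fold change of the 8 was 5.58, beside −0.20 over all genes tested.

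**Figure D1:**
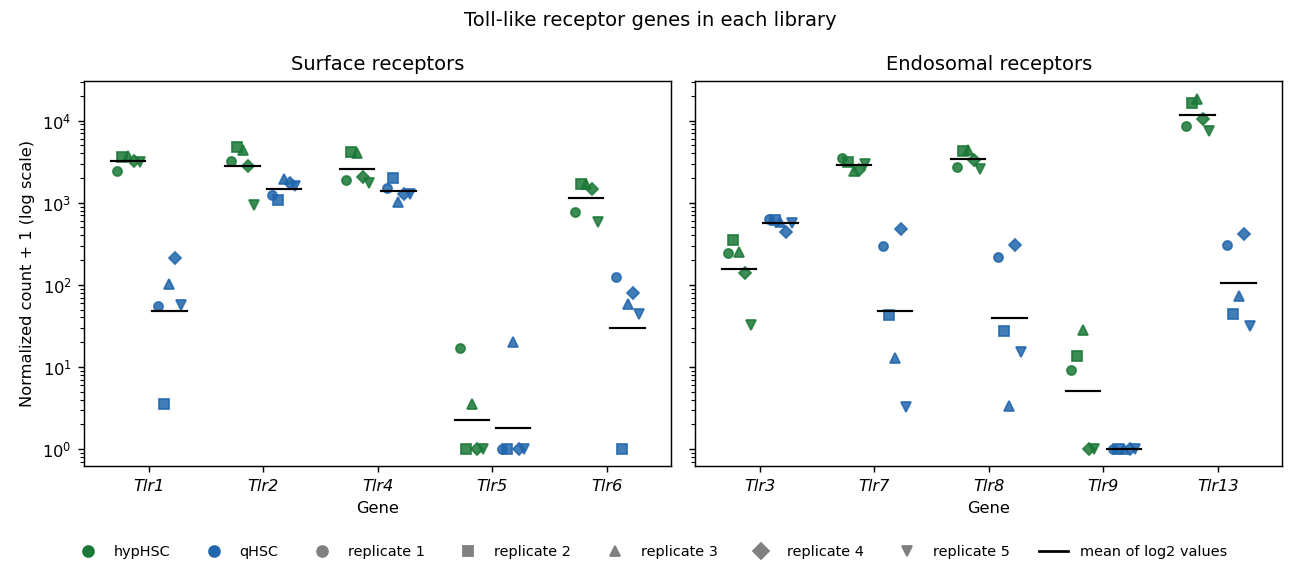
Normalized count plus 1 (log scale) of the 10 Toll-like receptor genes in each of the 5 hypHSC libraries (green) and 5 qHSC libraries (blue), with surface receptors on the left and endosomal receptors on the right. Symbols stand for replicates and bars for the mean of the log2 values. Tlr1, Tlr6, Tlr7, Tlr8 and Tlr13 of hypHSCs lie above all qHSC libraries, Tlr3 lies below, and Tlr2 and Tlr4 overlap.

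Among the surface receptors, the partners of Tlr2 separated the groups more than Tlr2 itself. Tlr1, the partner for triacylated lipopeptides, had 2448, 3629.6, 3696, 3198 and 3109.7 normalized counts in hypHSC 1 to 5 and 54.3, 2.56, 102, 214 and 56.2 in qHSC 1 to 5. The hypHSC libraries differed by no more than 1.51-fold, while qHSC 2 was at the floor of 3 reads and qHSC 4 was the highest of its group. For Tlr1 the log2 fold change was 6.06 ± 0.87 (SE, limma adjusted p = 0.00018), and the ratio of group means was 37.5.

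Tlr6, the partner for diacylated lipopeptides, had 771, 1671, 1715, 1478 and 589.9 normalized counts in hypHSCs and 122, 0, 56.7, 78.7 and 42.7 in qHSCs. hypHSC 5 and hypHSC 1 were the lowest hypHSC libraries, and both still exceeded every qHSC library by more than the spread of the qHSCs. Tlr6 had a log2 fold change of 5.24 ± 1.11 (limma adjusted p = 0.0025) and the ratio of group means 20.7.

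Tlr2, which binds bacterial lipopeptides together with these partners, had 3254, 4802, 4389, 2842 and 930.2 normalized counts in hypHSCs and 1227, 1068, 1954, 1752 and 1591 in qHSCs. The groups overlapped only through hypHSC 5, which was below all 5 qHSC libraries, and the other 4 hypHSC libraries were above them. At a log2 fold change of 0.93 ± 0.40, Tlr2 was not a DEG (limma adjusted p = 0.076, exact permutation p = 0.0873). Without hypHSC 5 it was 1.33 ± 0.22 and a DEG (limma adjusted p = 0.00054).

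Tlr4, the lipopolysaccharide receptor, had 1908, 4157, 4032, 2079 and 1733 normalized counts in hypHSCs and 1494, 1995, 1031, 1272 and 1266 in qHSCs. hypHSC 2 and 3 stood above the other hypHSC libraries, and hypHSC 1 and hypHSC 5 were below qHSC 2. Its log2 fold change of 0.91 ± 0.29 passed the test of a difference (limma adjusted p = 0.024, exact permutation p = 0.0238) but not the fold threshold of a DEG. It passed that threshold without hypHSC 1 (1.02), without hypHSC 5 (1.05) and without qHSC 2 (1.04).

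Tlr5, the flagellin receptor, had reads in few libraries. hypHSC 1 had 16.2 normalized counts and hypHSC 3 had 2.49, qHSC 3 had 18.9, and the other 7 libraries had none. A count of 0 allows up to 3 reads, 2.25 to 4.54 normalized counts depending on the library, for counting error only.

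Among the endosomal receptors, the receptors for single-stranded RNA were higher in hypHSCs and the receptor for double-stranded RNA was lower. Tlr13, which recognises bacterial ribosomal RNA, had 8649.7, 16256, 18614, 10606 and 7488 normalized counts in hypHSC 1 to 5 and 306, 42.6, 72.4, 419 and 30.7 in qHSC 1 to 5. It was the most abundant receptor gene of hypHSCs and had the smallest limma p of the 8 members. Its log2 fold change was 6.78 ± 0.68 (limma adjusted p = 1.5e-05) and the ratio of group means 70.7.

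Tlr8, a sensor of RNA breakdown products, had 2765, 4246, 4359, 3302 and 2576 normalized counts in hypHSCs and 215, 26.4, 2.36, 306 and 14.2 in qHSCs. Tlr7, which senses guanosine-rich and uridine-rich RNA, had 3469.8, 3125, 2462, 2498 and 2979.6 in hypHSCs and 299.6, 41.8, 11.8, 475 and 2.25 in qHSCs. For both genes qHSC 1 and qHSC 4 were the highest qHSC libraries, and qHSC 3 for Tlr8 and qHSC 5 for Tlr7 were at the floor of 3 reads. The log2 fold change was 6.42 ± 1.05 for Tlr8 (limma adjusted p = 0.00045) and 5.91 ± 1.16 for Tlr7 (limma adjusted p = 0.0015). Tlr7 varied least of all 8 members among hypHSCs, by 1.41-fold from the lowest to the highest library, and most among the qHSC libraries with reads, by 211-fold.

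Tlr3, which senses double-stranded RNA and signals through the adaptor Ticam1, had 243, 351, 247, 137 and 31.8 normalized counts in hypHSCs and 636, 616, 578, 439 and 559.7 in qHSCs. It varied by 1.45-fold among qHSCs and by 11.1-fold among hypHSCs, where hypHSC 5 was the lowest. The log2 fold change was −1.84 ± 0.55 (limma adjusted p = 0.017), and the qHSC mean was 2.80 times that of hypHSCs. For Tlr3 and the 5 higher members the exact two-sided permutation test gave p = 0.00794, the smallest that 5 libraries against 5 allow.

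Tlr9, the receptor for unmethylated CpG DNA, had 6, 12 and 33 reads in hypHSC 1, 2 and 3 and none in hypHSC 4 and 5 or in any qHSC library. The qHSC zeros allow up to 3 reads each, and a difference was not detectable at this depth. The other two Toll-like receptor genes of the mouse, which share profilin as a ligand, lay outside the 10 and were tested with all genes. Tlr11 had at most 43 reads in hypHSCs and 114 in qHSCs. Tlr12 had 170, 235, 335, 0 and 8 reads in hypHSCs and 661, 632, 507, 689 and 672 in qHSCs, so that each qHSC library had more than each hypHSC library. Neither was a DEG, with a log2 fold change of −3.50 ± 1.38 for Tlr12 (limma adjusted p = 0.055) and −1.49 ± 1.41 for Tlr11 (limma adjusted p = 0.41). Tlr12 was a lower DEG under 8 of 24 alternatives, among them without hypHSC 1 (−4.08), without hypHSC 2 (−4.11), without hypHSC 3 (−4.15) and with the replicate block (−3.50, limma adjusted p = 0.048).

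**Figure D2:**
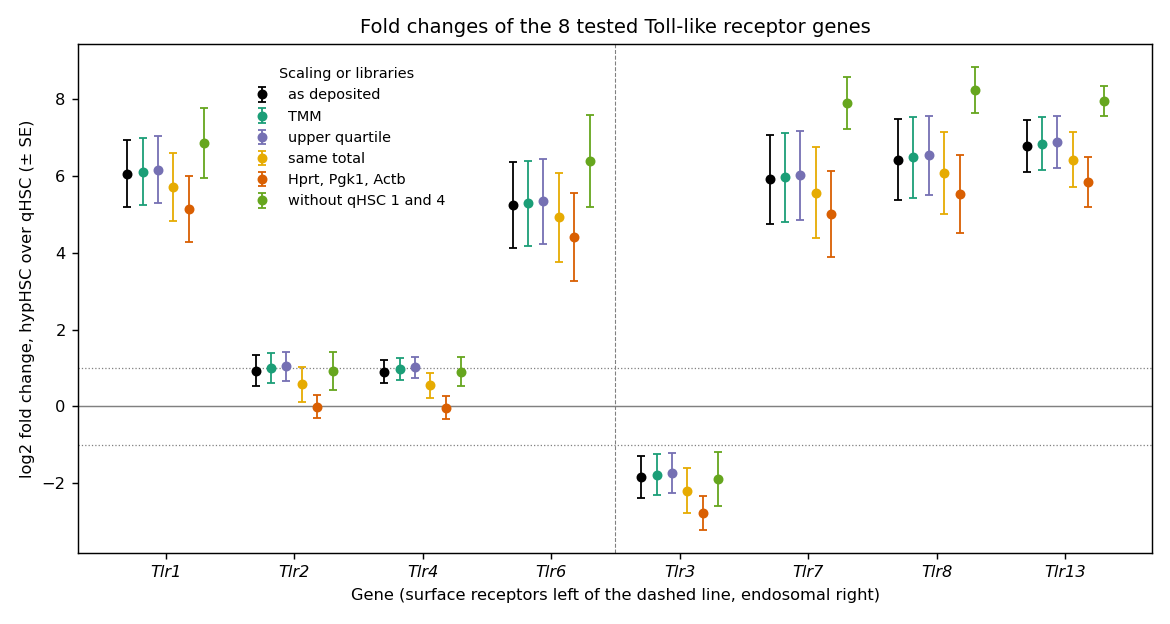
Log2 fold change of hypHSCs over qHSCs, with the SE of limma, for the 8 tested members under the deposited scaling, 4 other scalings and without qHSC 1 and qHSC 4. Dotted lines mark the fold threshold of a DEG. Tlr1, Tlr6, Tlr7, Tlr8 and Tlr13 stay above 4 and Tlr3 below −1 in each of these, while Tlr2 and Tlr4 move between −0.031 and 1.04.

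The values and calls of Tlr2 and Tlr4 moved with the scaling of the libraries. When libraries were scaled on Hprt, Pgk1 and Actb, which lowers the median log2 fold change of all genes by 0.93, Tlr2 came to −0.0061 ± 0.30 and Tlr4 to −0.031 ± 0.30 (limma adjusted p = 0.99 and 0.93), which gives neither a direction, while Tlr1, Tlr6, Tlr7, Tlr8 and Tlr13 stayed higher and Tlr3 lower. With libraries scaled to the same upper quartile, and with DESeq2 or edgeR on the recovered reads, Tlr2 and Tlr4 were DEGs.

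Levels of different genes were compared as FPKM, fragments per exon length and library depth, from the recovered reads and the summed exon length. In hypHSCs the mean FPKM was 64.1 ± 31.6 (SD, n = 5) for Tlr13, 22.9 ± 5.29 for Tlr1, 16.5 ± 5.44 for Tlr8, 14.6 ± 7.67 for Tlr2, 13.1 ± 2.13 for Tlr7, 9.79 ± 5.06 for Tlr4 and 6.28 ± 3.05 for Tlr6, followed by Tlr3 with 0.938 ± 0.590 and by Tlr9 and Tlr5 under 0.1. Tlr13 exceeded Tlr1 in 5 of 5 libraries with ranges that did not overlap, and Tlr6 exceeded Tlr3 in the same way. Between Tlr1 and Tlr6 the range of each gene overlapped that of the next, though Tlr1 was above Tlr8 in 5 of 5 libraries. Farther apart in that order, Tlr1 (17.6 to 30.4 FPKM) did not overlap Tlr7 (10.5 to 15.9), and neither these genes nor Tlr8 overlapped Tlr6 (2.54 to 9.80). Tlr13 ranked 575 among 23225 genes with a length in hypHSCs and 8248 in qHSCs.

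In qHSCs the order was another one. Tlr2 led with 8.47 ± 2.27 FPKM (SD, n = 5), followed by Tlr4 with 6.14 ± 1.55 and Tlr3 with 3.23 ± 0.483. The ranges of Tlr2 and Tlr4 overlapped, and those of Tlr4 and Tlr3 did not. Tlr13, Tlr7, Tlr1, Tlr8 and Tlr6 had means of 1.14, 0.966, 0.784, 0.682 and 0.381 FPKM with ranges that overlapped from one to the next. Per length, Tlr2 was thus above both of its partners in the mean of qHSCs, while Tlr1 was above Tlr2 in the mean of hypHSCs.

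The make-up of the receptor mRNA, which does not move with the scaling of a library, followed from these levels. Surface receptors held 34.7% to 37.9% of the summed FPKM of the 10 genes in hypHSCs and 62.8% to 81.3% in qHSCs. Tlr13 alone held 37.9% to 48.4% in hypHSCs and 1.06% to 9.83% in qHSCs. Tlr2 held 4.11% to 12.3% and 29.4% to 52.8%, and Tlr3 0.144% to 0.941% and 9.12% to 18.7%, in the same order. Within qHSCs the endosomal share was highest in qHSC 1 and qHSC 4, 37.2% and 35.6%, against 18.7% to 22.2% in the others. The length used bears on these values: with the canonical transcript length, an alternative chosen after seeing the data, the mean of Tlr2 in hypHSCs was 26.6 in place of 14.6 FPKM, above that of Tlr1, and the surface share came to 40.4% to 44.7% in hypHSCs and 71.9% to 86.2% in qHSCs.

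**Figure D3:**
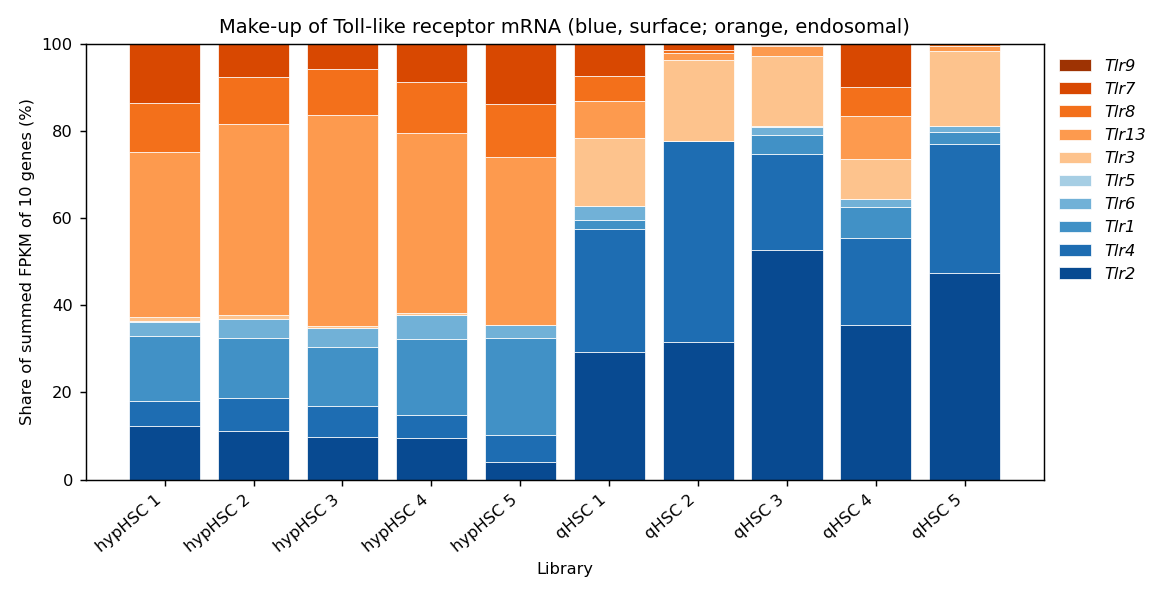
Share of each member in the summed FPKM of the 10 Toll-like receptor genes (vertical axis, percent) in each library, with surface receptors in blue and endosomal receptors in orange. Surface receptors fill 34.7% to 37.9% of a hypHSC bar and 62.8% to 81.3% of a qHSC bar, and Tlr13 is the widest segment in each hypHSC library.

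Among the qHSC libraries, Tlr7, Tlr8 and Tlr13 were highest in qHSC 4 and next in qHSC 1, as the macrophage and Kupffer cell marker sums were. Tlr6 was higher in qHSC 1 (122) than in qHSC 4 (78.7), with 56.7 in qHSC 3. Tlr1 was highest in qHSC 4 (214), followed by qHSC 3 (102). Core macrophage markers summed to 23193 normalized counts in qHSC 1 and 48417 in qHSC 4, and to 3420.1 to 6439 in the other 3. Markers of Kupffer cells, the resident macrophages of the liver, summed to 19247 and 44861, against 1270.4 to 1919.7. qHSC 1 and qHSC 4 were the highest pair of qHSC libraries for Tlr6, Tlr7, Tlr8 and Tlr13, for 6 of 10 core macrophage markers and for 6 of 6 Kupffer cell markers, and for 11.1% of all genes tested. Of the 6 Kupffer cell markers, Vsig4, Cd5l and Folr2 were higher in hypHSCs, and Clec4f, Marco and Timd4 did not pass the test. Among them Timd4 had 701 and 1719.9 normalized counts in these libraries and at most 61.4 in any other library of either group. The Kupffer cell marker sum of qHSC 4 exceeded that of every hypHSC library, 18347 to 34538. Of the single markers, Clec4f (18766 against at most 8014) and Timd4 did so, while Vsig4, Cd5l, Marco and Folr2 were below the highest hypHSC library. In qHSC 4 the core macrophage sum of 48417 was below the 958263 of hypHSC 5, the lowest hypHSC library. The Tlr13 count of qHSC 4, 419, was likewise below the lowest of hypHSCs, 7488. Lyz2 made up most of both sums, 30968 and 740305. Adgre1 (1579.6 against 1113), Csf1r (3833 against 1833) and Cx3cr1 (7.70 against 0) were higher in qHSC 4 than in hypHSC 5. The other core markers were lower.

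Without qHSC 1 and qHSC 4, a choice made after seeing the data, the same 5 members were higher. The log2 fold change came to 7.96 ± 0.38 for Tlr13, 8.23 ± 0.60 for Tlr8, 7.89 ± 0.68 for Tlr7, 6.39 ± 1.19 for Tlr6 and 6.85 ± 0.91 for Tlr1. Tlr3 kept its direction at −1.89 ± 0.70 but was no longer a DEG (limma adjusted p = 0.060). hypHSC 5 was the lowest hypHSC library for 6 of the 8 tested members (Tlr2, Tlr4, Tlr6, Tlr3, Tlr8 and Tlr13) and for 38.1% of all genes tested. It was also the lowest for Myd88, with 306 normalized counts against 1590.4 to 2265, and for Unc93b1, with 2029.8 against 5471 to 22084. What part hypHSC 5's lower number of genes had in these values was not tested.

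**Figure D4:**
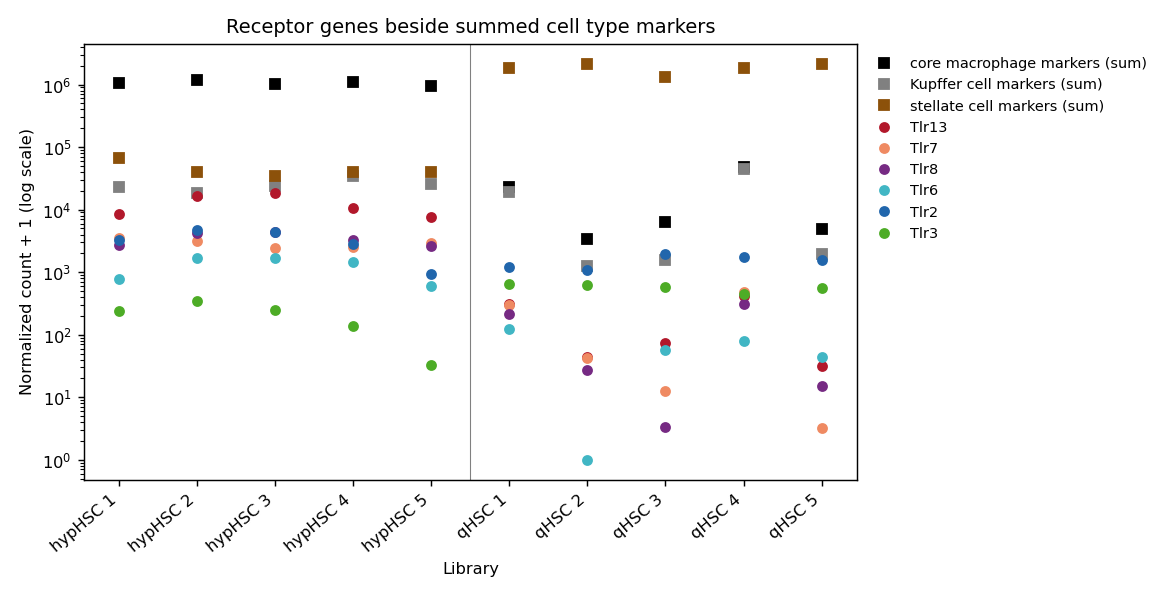
Normalized count plus 1 (log scale) in each library of 6 receptor genes (circles) and of the summed stellate, core macrophage and Kupffer cell markers (squares). Tlr7, Tlr8 and Tlr13 are higher in qHSC 1 and qHSC 4 than in the other qHSC libraries, as both macrophage sums are, and these are not the highest pair for Tlr2 or Tlr3.

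The genes whose pattern over the 10 libraries was most like that of the leading members were found by the mean absolute difference of centred log2 values. For Tlr13 they were Itgb2, a leukocyte integrin chain, at 0.36, Lilrb4b at 0.43 and Ly9 at 0.44, beside a median of 3.49 over all genes. For Tlr2 they were Cep128 at 0.12, Ciao3 at 0.20 and Brms1 at 0.20, beside a median of 0.99.

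The other genes of the Toll-like receptor pathway were taken from 7 lists of 87 genes, of which 82 were tested. DEGs higher in hypHSCs numbered 36 (43.9%), against the 17.8% of all genes, and lower ones 6 (7.3%), against 21.7%. The 36 were 6 co-receptors, 7 trafficking and processing genes, 2 adaptors, 3 kinases or ubiquitin ligases, 3 transcription factors, 5 negative regulators and 10 cytokines or enzymes. Without qHSC 1 and qHSC 4 the counts were 37 and 5.

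All 6 co-receptors and receptor-like partners were DEGs higher in hypHSCs, beside 17.8% of all genes, with a median log2 fold change of 4.52. Cd14, which hands lipopolysaccharide to Tlr4, had 44243, 63549, 47396, 73709.7 and 36935 normalized counts in hypHSCs and 2709.8, 881, 1043, 9300.5 and 1046 in qHSCs. Its change was 4.77 ± 0.57 on the log2 scale (limma adjusted p = 5.4e-05). Even the highest qHSC library, qHSC 4, was below the lowest hypHSC library. Ly96, the lipopolysaccharide-binding partner of Tlr4, rose by 1.54 ± 0.22, which was the smallest change of the list, and had at least 1013 normalized counts in every library. Cd36, a scavenger receptor that works with Tlr2 and Tlr6, rose by 10.05 ± 1.05, Cd180, a receptor-like regulator of Tlr4, by 4.66 ± 0.67 and its partner Ly86 by 4.38 ± 0.70. Lbp, the serum protein that binds lipopolysaccharide, rose by 2.83 ± 0.69 at low counts, 13.6 to 144 against 6.30 to 22.2, and its groups overlapped.

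Of 12 trafficking and processing genes, 7 (58.3%) were higher, beside 17.8% of all genes, and 5 did not pass. The largest changes were those of Ctss, 6.71 ± 0.68, Ctsb, 3.62 ± 0.47, and Ctsk, 2.63 ± 0.33, all of them cathepsins of the endolysosome, and of Pld4, a nuclease that limits ligands of nucleic acid sensors, 3.60 ± 0.75. The DEGs Lgmn, Pld3 and Slc15a4 made up the rest. Unc93b1 had 11583, 22084, 20591, 5471 and 2029.8 normalized counts in hypHSCs and 4742, 3827, 3737, 5102 and 2891 in qHSCs. hypHSC 5 was below all qHSC libraries and the other 4 were above, and Unc93b1 was not a DEG (1.17 ± 0.57, limma adjusted p = 0.11).

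Of 6 adaptors, 5 were tested and 2 were higher: Ticam2, which links Tlr4 to Ticam1, by 4.48 ± 1.03, and Pik3ap1, which couples receptors to phosphoinositide kinase, by 5.26 ± 1.04. Myd88, the adaptor of most members, had 2250.3, 2125, 2265, 1590.4 and 306 normalized counts in hypHSCs and 3469, 3056, 2422, 2543 and 3180.0 in qHSCs. Each hypHSC library was below each qHSC library, yet the log2 fold change of −1.06 ± 0.49 did not pass (limma adjusted p = 0.096). Myd88 was a lower DEG with libraries scaled to the same total (−1.41, limma adjusted p = 0.045) or on Hprt, Pgk1 and Actb (−2.0, limma adjusted p = 0.00064). Without hypHSC 5 it came to −0.51 ± 0.16 (limma adjusted p = 0.022), under the fold threshold. Tirap had −0.28 ± 0.34 and Ticam1 0.78 ± 0.33, neither of them a DEG, although Ticam1 came to 1.01 and was one without hypHSC 4. Sarm1 was not tested.

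Of 18 signalling kinases and ubiquitin ligases, 3 (16.7%) were higher, a share near the 17.8% of all genes. Ikbke, a kinase of interferon regulatory factors, rose by 2.92 ± 0.36, Ripk1 by 1.26 ± 0.29 and the ubiquitin ligase Peli1 by 1.10 ± 0.22, which came to 0.99 and was no DEG without qHSC 2. Of the 10 transcription factors, 3 were higher and 3 lower. Irf5, which acts downstream of Tlr7 and Tlr8, rose by 3.04 ± 0.67, the NF-κB subunit Rel by 2.20 ± 0.34 and Irf8 by 1.63 ± 0.29, while Irf1 fell by 1.94 ± 0.38 and Rela and Irf3 were the other DEGs that were lower.

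Of 16 negative regulators, 5 (31.2%) were higher and 1 (6.2%) lower, beside 17.8% and 21.7% of all genes. Their median log2 fold change of −0.15 was close to that of all genes. Tnip3, an inhibitor of NF-κB, had 2041 to 3303 normalized counts in hypHSCs and 0 to 24.4 in qHSCs, and rose by 8.97 ± 0.89. The deubiquitinase gene Tnfaip3 rose by 3.78 ± 0.42 and the repressor gene Atf3 by 2.69 ± 0.43. Socs3, an inhibitor of cytokine signalling, fell by 2.85 ± 0.40. The counts came to 3 and 3 with the hypHSCs of 12 weeks only, to 3 and 6 with scaling on Hprt, Pgk1 and Actb, and to 5 and 2 without hypHSC 2.

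Of 19 induced cytokines and enzymes, 15 were tested, with a median of 3.62. Of these, 10 (66.7%) were higher and 2 (13.3%) lower, beside 17.8% and 21.7% of all genes. Il1rn, the antagonist of interleukin-1, rose by 6.39 ± 0.64, Cxcl2, a neutrophil chemokine, by 5.31 ± 0.40, Tnf by 4.79 ± 0.63 and Ccl3 by 4.39 ± 0.46. Ccl2, the monocyte chemokine, and the interferon-induced Cxcl10 were the 2 lower DEGs. Ifnb1, the interferon gene reached through Tlr3 and Tlr4, had at most 4.04 normalized counts, 3 reads, in any library. Tnf, Cxcl2, Cd36 and Ctss are also genes that the study named from these libraries, so they are not independent evidence of a direction. In the lists of co-receptors, trafficking genes and adaptors, limma called 0 genes lower as deposited, as did DESeq2 and edgeR. These counts moved with the scaling and the libraries. Scaled to the same total, limma called 1 adaptor and 1 kinase gene lower. On Hprt, Pgk1 and Actb it called 2 trafficking genes, 2 adaptors and 3 kinase genes lower. With the hypHSCs of 12 weeks only, 1 trafficking gene was called lower. By limma as deposited, none of the genes of the first 3 lists was lower at an unadjusted p under 0.05. Among the kinases, where the count was 0 for all 3 tools, 2 genes were lower at that level by limma, Traf6 and Ube2v1. By the exact permutation test, the adaptor Myd88 (p = 0.0079) and the trafficking gene Hsp90b1 (p = 0.048) were also lower at that level.

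**Figure D5:**
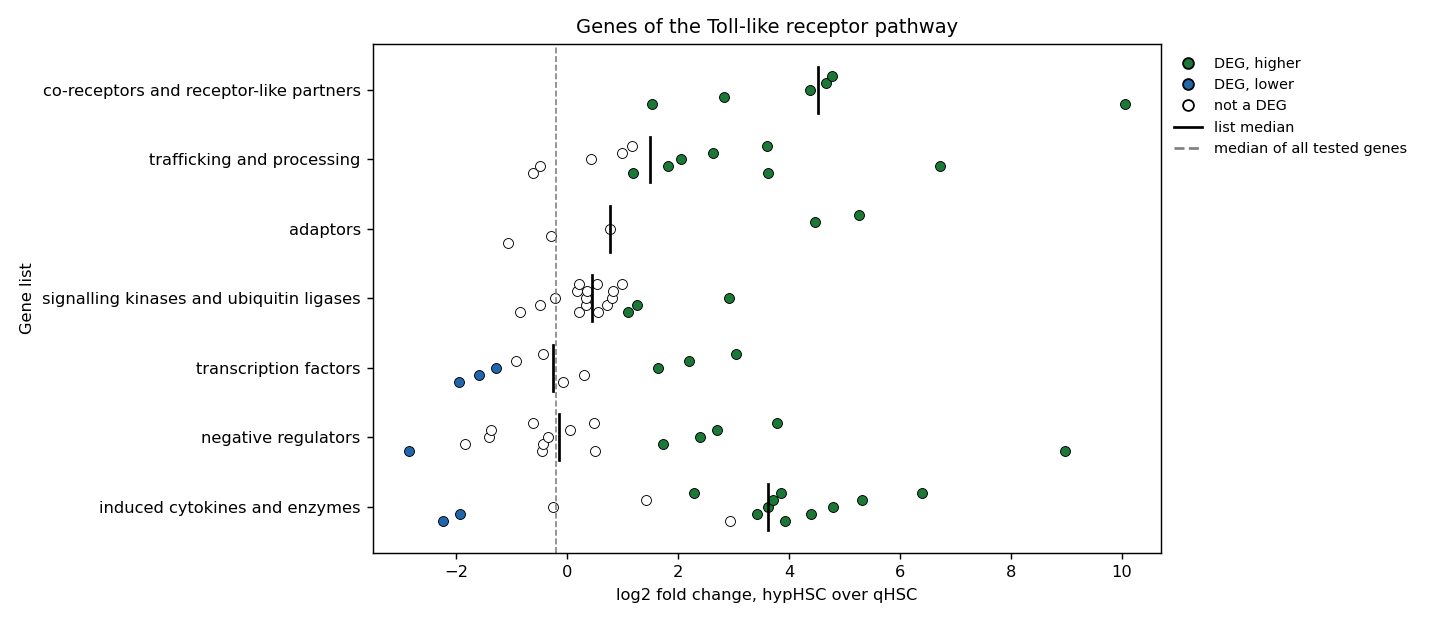
Log2 fold change of hypHSCs over qHSCs for the 82 tested genes of 7 Toll-like receptor pathway lists, 1 point a gene, with DEGs filled and list medians as black bars. The co-receptor and cytokine medians, 4.52 and 3.62, lie far from the dashed median of all tested genes, −0.20, and those of transcription factors and negative regulators lie near it.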

How the data were processed

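RNA of sorted cells was copied from its poly(A) tail into libraries without strand and sequenced from both ends with 59 bases a read. The authors mapped the reads to mm39 with STAR, counted them with featureCounts (Subread 1.5.0), and deposited a signal per gene, the read count divided by the DESeq2 size factor of the library. Whole reads were recovered for 100% of the values in every library, within the rounding to the deposited decimals (a tolerance of 0.0051), and were used for depth, FPKM, DESeq2 (1.42.0) and edgeR (4.0.16). The transcript database behind the counts was not used here, and exon lengths were those of GENCODE on GRCm39, found for 92.0% of the 25233 entries with a symbol.

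Tests covered the 14630 genes with a symbol whose normalized count was 10 or more in 5 or more of the 10 libraries, on log2(normalized count + 1), with limma (3.58.1, R 4.3.3, intensity trend) and Benjamini-Hochberg adjustment over all of them. The added 1 shrinks the fold change of low genes on this scale. A mean of log2 values also gives low libraries more weight than a group mean does. The log2 fold change of Tlr7, 5.91, was thus larger than its 17.5-fold ratio of group means. SEs came from limma. Permutation tests on single genes were exact, two-sided and on log2 values. The steps were tested on simulated data. The deposited table is thus a signal and not raw counts, so limma gave the results and count tools the alternatives. The members and lists were chosen with earlier results of these data known. The text names all members, all genes of pathway lists of up to 6 genes, and from longer lists the 4 DEGs with the largest absolute fold change among those whose mean normalized count was 100 or more. The other genes named were chosen after their values were seen. Alternatives changed the pseudocount, the filter, the scaling, the tool, the replicate block, the libraries and, for FPKM, the length. Intervals and floors cover counting error only.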

Additional observations from a re-analysis of the deposited data

Results flagged for a closer look

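In 7 of 86 groups of 5 libraries examined, over the members, Tlr11, Tlr12 and the named pathway genes, 1 library lay far outside the other 4 (Dixon's gap ratio above 0.71). For normally distributed values chance alone would flag about 1 group in 20. These are counts that were not log-transformed, some of them at or near 0, so that rate need not hold here. The flags of Tlr5 and Sarm1 rest on few reads beside such values. Tlr5 stood out in hypHSC 1 with 16.2 normalized counts, against 0 to 2.49 in the other hypHSC libraries, and in qHSC 3 with 18.9, where the other qHSC libraries had 0. In qHSC 4, the library with the most Kupffer cell marker counts, Cd14 reached 9300.5 normalized counts where the other qHSC libraries had 881 to 2709.8, and Ly86 reached 2096 where they had 130.4 to 643. Sarm1 had 32.3 normalized counts in hypHSC 1 and 0 in the other hypHSC libraries. Also in hypHSC 1, Rel was low at 275, against 637 to 727, and Socs3 was high at 296, against 81.8 to 99.8. The causes of these values were not tested.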

How the results depend on the processing

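Of 8 tested members, Tlr1, Tlr6, Tlr7, Tlr8 and Tlr13 kept their direction and their call under all 24 alternatives. Tlr3 was lower and called under all but 1. Over the alternatives the number of members called higher ran from 5 to 7 and lower from 0 to 1, and that of pathway genes from 27 to 39 and from 5 to 22. The value of 0 came without qHSC 1 and qHSC 4 together (limma), where Tlr3 was still lower at an unadjusted p under 0.05, and DESeq2 and edgeR on all libraries called 1. The value of 22 came with scaling on Hprt, Pgk1 and Actb, which by construction shifts all genes, by −0.93 in the median, and brought Tlr2 (−0.0061), Tlr4 (−0.031) and Ticam1 (−0.16) to within 1 SE of 0. Ly96, Ripk1, Peli1 and Irf8 lost their call there, and Ripk1 and Peli1 with the same total. Tlr2 and Tlr4 gained a call with upper quartile scaling, DESeq2 or edgeR. Scaling to the same total shifted the median by −0.35, upper quartile scaling by 0.11, and DESeq2 and edgeR by 0.20. The split of all calls was 2602 higher and 3177 lower as deposited, 2022 and 4224 with the same total, 1472 and 6989 on the 3 genes, and 3014 and 2847 with DESeq2. Refits of the named pathway genes kept the call 707 times, lost it 7 times, gained it 4 times and changed sign without a call 1 time. Without 1 library each, 5 to 7 members were higher and 1 lower, and 34 to 39 pathway genes higher and 5 to 7 lower. Without hypHSC 5 the surface receptors higher were 4 in place of 2. The replicate numbers do not pair the samples (correlations of same-numbered libraries 0.0082 to 0.13, and 2 of 10 libraries closest to their own number), and with the replicate block the members called were 5 higher and 1 lower, the pathway genes 34 and 6, and Tlr12, outside these sets, gained a call. Depth limits Tlr5 and Tlr9, which without the filter were not called either (adjusted p = 0.83 and 0.062).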
